A study of Mus musculus with 46 samples.

Results

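The genes described here are 38 kidney transcripts made mainly outside the proximal tubule, chosen by name as known markers and transport genes of 5 cell types. They comprise 3 podocyte genes, 10 thick ascending limb genes, 10 distal tubule genes, 8 principal cell genes and 7 intercalated cell genes. All 38 were found in both deposited expression tables, which hold 17242 genes at 12 weeks of age and 18531 genes at 18 months. The animals were wild-type C57BL6 mice that underwent castration or a sham procedure when 8 weeks old. Kidney and liver were taken at 12 weeks or at 18 months from sham males, castrated males and sham females, and polyadenylated RNA was sequenced. The 46 libraries form 12 groups. Each sham group holds 3 libraries, and each castrated male group holds 6 libraries at 12 weeks and 5 at 18 months. The labels give no agent, allele or batch beyond surgery, sex and age, and they do not say whether libraries of a group came from separate mice, so the p-values below measure the spread between libraries.

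Podocytes wrap the glomerular capillaries and form the slit diaphragm of the filter. The thick ascending limb reabsorbs salt without water, dilutes the tubular fluid and takes up calcium and magnesium between its cells. The distal convoluted tubule reabsorbs salt through the thiazide-sensitive cotransporter under control of the WNK kinases, and principal cells of the collecting duct take up sodium and, under vasopressin, water. Intercalated cells of the same duct secrete acid or base. The kidneys of male and female mice are known to differ, most of all in the proximal tubule, where androgens act.

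The values are the authors' group means, so neither the depth nor the value of any single library is known and no spread between libraries can be printed. At 12 weeks the unit is FPKM, in which fragments are divided by gene length and by library size, which allows levels of different genes to be compared. At 18 months the unit is not named, so no gene is said to be more abundant than another there. Ratios of a pair of genes and sums over genes at 18 months are given only to be compared between the 3 groups, and the weight of each gene in a sum depends on that unit. A gene was said to have risen, fallen or differed when the authors' own adjusted p was under 0.05. For 18 months, the error given after ± is the standard error (SE) that the deposited log2 fold and p-value imply. In whole kidney, fewer cells of a type and less RNA per cell cannot be told apart.

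The mean of all 38 genes reached 1 in each of the 6 kidney groups, and 34 of the 38 were at least 10-fold higher in kidney than in liver at both ages, averaged over the 3 groups of a tissue. At 12 weeks the levels ran from 2.64 FPKM for the calcium-sensing receptor Casr in sham females to 2763 FPKM for Fxyd2 in sham males. Fxyd2, which modulates the sodium pump, is also known from the proximal tubule, and it made up more of the summed level of the 38 genes than the other 37 together in sham males.

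The start regions of 4 genes are shown, because these genes carry the main patterns below and stand for 3 segments. Umod (thick limb) moved in opposite directions at the 2 ages, the salt cotransporters Slc12a1 (thick limb) and Slc12a3 (distal tubule) rose together at 18 months, and Atp6v1b1 stands for the intercalated cells. Each runs 5′ to 3′ on the gene's strand from 250 bases before the transcription start to 50 bases after it, from RefSeq on GRCm38.p6. The positions are chr7:119479213-119479512 on the minus strand for Umod, chr2:125152350-125152649 on the plus strand for Slc12a1, chr8:94328958-94329257 on the plus strand for Slc12a3, and chr6:83742767-83743066 on the plus strand for Atp6v1b1.
Umod: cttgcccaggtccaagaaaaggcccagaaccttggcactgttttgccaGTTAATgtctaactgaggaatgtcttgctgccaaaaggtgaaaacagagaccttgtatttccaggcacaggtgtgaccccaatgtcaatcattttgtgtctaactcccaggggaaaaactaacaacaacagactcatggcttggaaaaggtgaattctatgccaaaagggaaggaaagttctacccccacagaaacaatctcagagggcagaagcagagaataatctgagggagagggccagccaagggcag
Slc12a1: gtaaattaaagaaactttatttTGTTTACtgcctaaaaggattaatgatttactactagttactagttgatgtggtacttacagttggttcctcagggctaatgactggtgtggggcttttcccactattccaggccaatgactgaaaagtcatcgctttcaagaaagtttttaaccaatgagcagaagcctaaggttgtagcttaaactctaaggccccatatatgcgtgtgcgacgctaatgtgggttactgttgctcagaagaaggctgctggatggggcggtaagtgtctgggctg
Slc12a3: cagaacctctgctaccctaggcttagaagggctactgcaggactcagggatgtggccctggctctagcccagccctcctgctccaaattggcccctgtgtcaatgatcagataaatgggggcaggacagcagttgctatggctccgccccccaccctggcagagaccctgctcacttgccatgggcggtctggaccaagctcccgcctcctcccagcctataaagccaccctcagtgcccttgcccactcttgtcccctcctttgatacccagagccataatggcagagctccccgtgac
Atp6v1b1: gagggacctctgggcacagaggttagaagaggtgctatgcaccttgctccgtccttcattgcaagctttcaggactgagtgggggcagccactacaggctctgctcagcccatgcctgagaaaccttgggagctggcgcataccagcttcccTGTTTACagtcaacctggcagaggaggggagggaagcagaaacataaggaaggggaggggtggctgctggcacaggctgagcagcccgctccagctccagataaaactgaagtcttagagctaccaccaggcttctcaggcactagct
Capitals mark a match to a searched motif, on either strand. In Umod they mark GTTAAT, the conserved arm of the site of the tubule factor HNF1, which lies in 7.10% of 32851 start regions of this length. In Slc12a1 and Atp6v1b1 they mark TGTTTAC, the forkhead core, which lies in 3.65% of them. Foxi1, one of the 7 intercalated cell genes, encodes a forkhead factor. Neither motif was found in the Slc12a3 region. The 29 genes with an entry have 36 start regions. Of these regions, 4 held GTTAAT (Atp6v1g3, Cldn10, Kcnj16 and Umod) and 4 held TGTTTAC (Atp6v1b1, Avpr2, Egf and Slc12a1). TGTTCT, the hexamer bound by a single androgen or glucocorticoid receptor molecule, was found in 9 of the 36 regions and in 19.0% of all start regions. None of the 3 motifs is contained in another. A match is a string of letters, not a measured binding site.

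At 18 months most of the 38 genes were lowest in sham males. Castrated males were higher than sham males in 28 of the 38 genes and lower in 1, Cldn10, by the adjusted p of the authors' DESeq2 test in the authors' deposited table. The background for those counts was 9.56% of 17872 genes higher and 13.1% lower. Sham females were higher than sham males in 29 genes and lower in 1, again Cldn10, in the authors' deposited table, against 7.91% higher and 8.90% lower among 17625 genes. The median difference of log2(mean + 1) over the 38 genes was 0.64 for castrated against sham males and 0.79 for sham females against sham males, where the medians over every gene whose mean reached 1 were 0.13 and 0.11. Both comparisons use the same 3 sham male libraries, so they are not independent of each other. The median log2 folds of the 38 genes in the authors' deposited table were 0.52 and 0.68.

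In order of the 3 group means at 18 months, sham males were lowest in 34 of the 38 genes, while 58.4% of the 12803 genes whose mean reached 1 had that order. In 26 of these 34 sham females were highest, with castrated males between. In the other 8, namely the 3 podocyte genes and Pvalb, Trpm6, Wnk4, Klhl3 and Slc4a9, castrated males were highest. The exceptions were Cldn10, Kcnj16, Aqp3 and Fxyd2. Leaving out Fxyd2, the means of the 37 other genes summed to 3191 in sham males, 4600 after castration and 6173 in sham females.

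**Figure D1:**
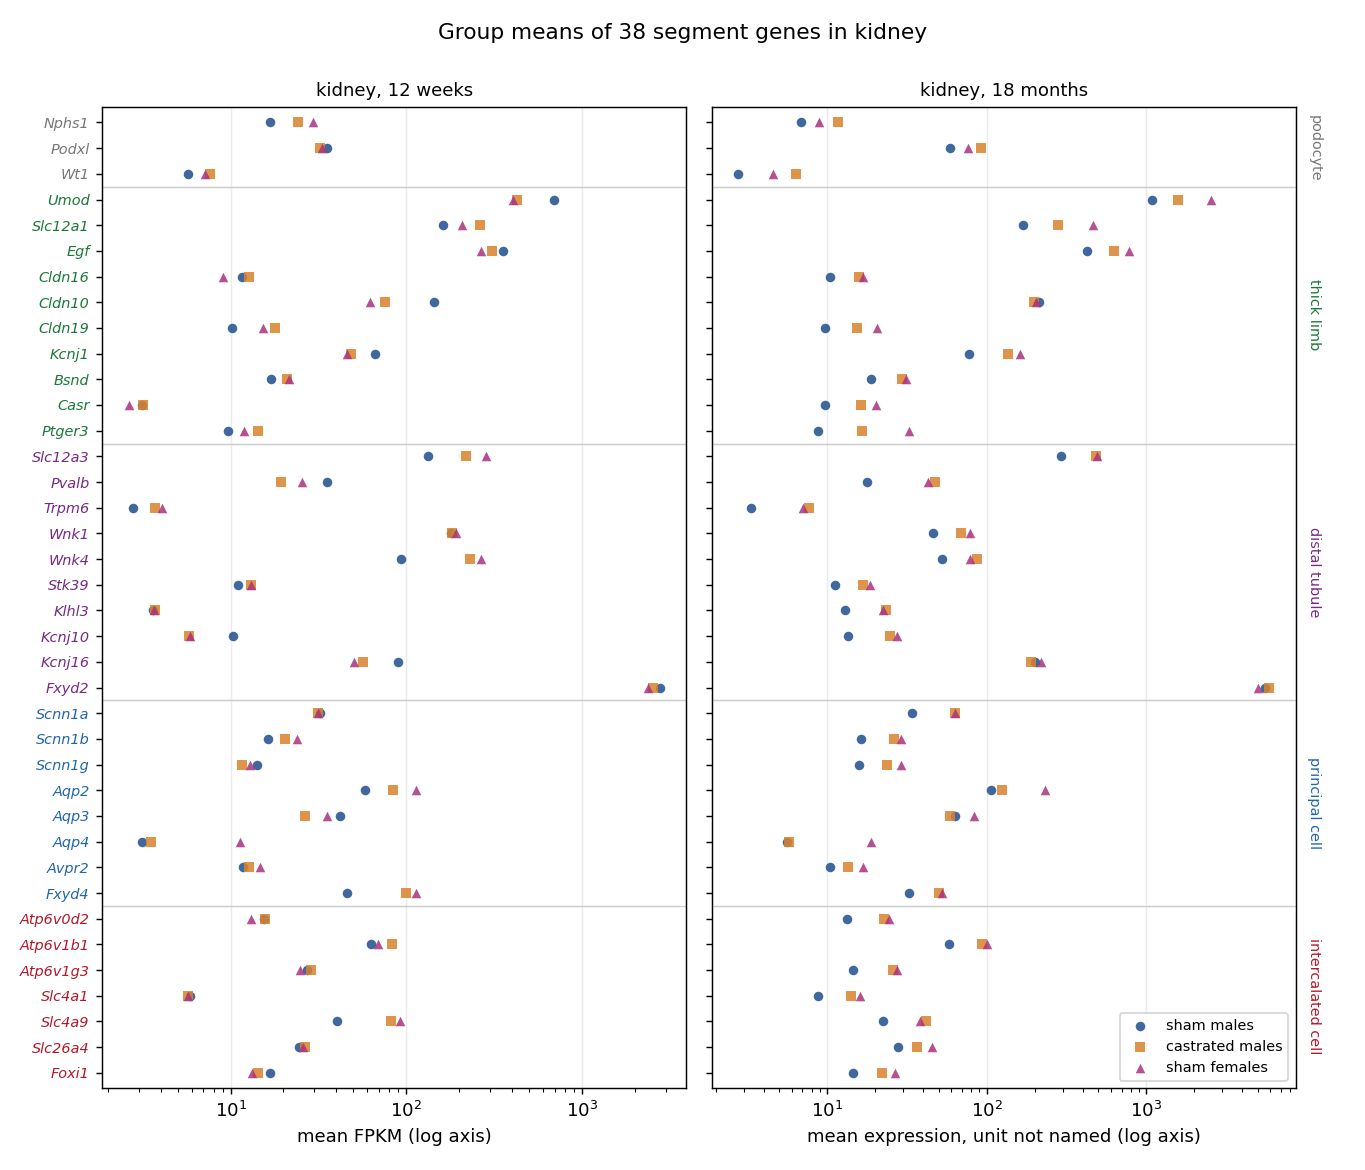
Group means of the 38 genes in kidney at 12 weeks (left, FPKM) and 18 months (right, unit not named), both on log axes, with 1 point per group and no error, since the values are group means. At 18 months the sham male point lies lowest in 34 of 38 genes, and at 12 weeks in 20.

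The 3 podocyte genes rose after castration at 18 months and did not pass the test between the sexes. Nphs1 encodes nephrin, the core of the slit diaphragm, and its means were 6.82 in sham males, 11.7 after castration and 8.89 in sham females. Its rise after castration had a log2 fold of 0.63 ± 0.13 and adjusted p = 1.02e-05 in the authors' deposited table. Wt1, a transcription factor that podocytes keep through life, had means of 2.78 in sham males, 6.41 after castration and 4.54 in sham females, and the authors' deposited table gives a log2 fold of 1.06 ± 0.14 and adjusted p = 1.71e-12 for castration. Podxl encodes podocalyxin, the negatively charged coat of podocyte foot processes, which endothelial cells also carry. Its means were 58.5 in sham males, 91.5 after castration and 76.9 in sham females, with a log2 fold of 0.50 ± 0.10 and adjusted p = 8.83e-06 after castration in the authors' deposited table. Against sham females, castrated males were higher in Nphs1 (log2 fold of 0.39 ± 0.094 and adjusted p = 0.00114 in the authors' deposited table), while Podxl and Wt1 missed the threshold with adjusted p = 0.0991 and 0.0784.

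Of the 10 thick limb genes, 8 rose after castration at 18 months and 8 were higher in females than in sham males. Umod encodes uromodulin, the most abundant protein of normal urine, and its means were 1091 in sham males, 1585 after castration and 2561 in sham females. The authors' deposited table gives Umod a log2 fold of 0.39 ± 0.11 and adjusted p = 0.00386 for castration and a log2 fold of 1.10 ± 0.18 and adjusted p = 2.41e-08 for females. Slc12a1 encodes the furosemide-sensitive cotransporter that drives salt uptake in this segment. Its means were 168 in sham males, 279 after castration and 466 in sham females, with a log2 fold of 0.58 ± 0.15 and adjusted p = 0.000708 for castration and a log2 fold of 1.35 ± 0.20 and adjusted p = 1.56e-09 for females in the authors' deposited table. Kcnj1, the potassium channel that returns potassium to the lumen, had means of 77.8 in sham males, 136 after castration and 162 in sham females. Its female difference had a log2 fold of 0.93 ± 0.082 and adjusted p = 1.71e-27 in the authors' deposited table, the lowest adjusted p of any of the 38 genes there.

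Ptger3, a prostaglandin receptor that restrains salt uptake and the action of vasopressin, showed the largest female difference of the 38 genes at 18 months. Its means were 8.77 in sham males, 16.5 after castration and 32.7 in sham females, with a log2 fold of 1.77 ± 0.23 and adjusted p = 8.59e-13 for females in the authors' deposited table. The precursor of epidermal growth factor, Egf, had means of 422 in sham males, 627 after castration and 781 in sham females. The calcium-sensing receptor Casr, which lowers calcium uptake, had means of 9.67 in sham males, 16.3 after castration and 20.3 in sham females, and the chloride channel subunit Bsnd (barttin) had means of 18.9 in sham males, 29.6 after castration and 31.2 in sham females. Each of these 3 genes passed the test for castration and for sex. The authors' deposited table gives castration log2 folds of 0.33 ± 0.11 for Egf, 0.58 ± 0.12 for Casr and 0.49 ± 0.14 for Bsnd.

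Of the 3 claudins of the list, Cldn16 and Cldn19 had the same order of means at 18 months and Cldn10 did not. Cldn16 and Cldn19 form the pore through which calcium and magnesium pass between thick limb cells, and Cldn10 encodes a sodium pore there and, as another isoform, an anion pore in the proximal tubule. Cldn16 had means of 10.4 in sham males, 15.8 after castration and 16.8 in sham females, and rose after castration (log2 fold of 0.45 ± 0.13 and adjusted p = 0.00377 in the authors' deposited table). Its female difference had a log2 fold of 0.56 ± 0.23 and adjusted p = 0.0738 in the authors' deposited table. Cldn19 had means of 9.63 in sham males, 15.3 after castration and 20.5 in sham females, and the authors' deposited table gives a log2 fold of 0.34 ± 0.21 and adjusted p = 0.286 for castration but a log2 fold of 0.69 ± 0.26 and adjusted p = 0.0455 for females. Cldn10 had means of 213 in sham males, 197 after castration and 205 in sham females, which lie close together. It fell after castration with a log2 fold of -0.33 ± 0.074 and adjusted p = 0.000139 and was lower in females with a log2 fold of -0.29 ± 0.11 and adjusted p = 0.0462 in the authors' deposited table. Cldn10 was the only 1 of the 38 genes called lower in either comparison at 18 months. The ratio of the Cldn10 mean to the Cldn16 mean was 20.4 in sham males, 12.5 after castration and 12.2 in sham females at 18 months, and 12.5, 5.89 and 6.86 in the same order at 12 weeks.

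Of the 10 distal tubule genes, 8 rose after castration at 18 months and 8 were higher in females. Slc12a3 encodes the thiazide-sensitive cotransporter that defines the segment, with means of 293 in sham males, 487 after castration and 490.1 in sham females. The authors' deposited table gives Slc12a3 a log2 fold of 0.57 ± 0.19 and adjusted p = 0.0136 for castration and a log2 fold of 0.61 ± 0.16 and adjusted p = 0.00147 for females. Pvalb encodes parvalbumin, a calcium buffer of the early distal tubule, and had the largest castration difference of the 38 genes. Its means were 17.8 in sham males, 47.2 after castration and 43.0 in sham females, with a log2 fold of 1.26 ± 0.19 and adjusted p = 1.25e-09 for castration in the authors' deposited table. Trpm6, the channel for magnesium uptake, had means of 3.31 in sham males, 7.71 after castration and 7.10 in sham females and a log2 fold of 1.05 ± 0.18 and adjusted p = 1.61e-07 for castration in the authors' deposited table. In Slc12a3, Pvalb and Trpm6 the castrated male and female means lay close together, well above the sham male mean.

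The regulators of the cotransporter showed the same order of sham males lowest. WNK kinases activate Stk39 (SPAK), which phosphorylates the cotransporters, and Klhl3 marks WNK kinases for breakdown. Wnk4 had means of 52.6 in sham males, 86.7 after castration and 78.6 in sham females, and Wnk1, which is expressed in many cell types, had means of 46.2 in sham males, 69.3 after castration and 78.2 in sham females. Stk39 had means of 11.1 in sham males, 16.8 after castration and 18.4 in sham females, and Klhl3 had means of 12.9 in sham males, 23.3 after castration and 22.4 in sham females. Their castration log2 folds in the authors' deposited table were 0.57 ± 0.086 for Wnk4, 0.43 ± 0.14 for Wnk1, 0.44 ± 0.087 for Stk39 and 0.69 ± 0.15 for Klhl3. All 4 passed the test for castration and for sex, the kinase genes and Klhl3 alike.

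Among the basolateral potassium channel subunits, Kcnj10 rose and its partner Kcnj16 did not pass the test. Kcnj10 had means of 13.5 in sham males, 24.8 after castration and 27.5 in sham females, with a log2 fold of 0.72 ± 0.13 and adjusted p = 5.40e-07 for castration and a log2 fold of 0.88 ± 0.13 and adjusted p = 3.95e-10 for females in the authors' deposited table. Kcnj16, which is also known from the proximal tubule, had means of 199.7 in sham males, 189 after castration and 219 in sham females, with a log2 fold of -0.24 ± 0.13 and adjusted p = 0.178 for castration in the authors' deposited table. The ratio of the Kcnj16 mean to the Kcnj10 mean was 14.7 in sham males, 7.61 after castration and 7.97 in sham females at 18 months. At 12 weeks the same ratio did not separate sham males from the other groups, at 8.66, 9.80 and 8.61. Fxyd2 had means of 5571 in sham males, 5887 after castration and 5026 in sham females and passed neither test, with adjusted p = 0.870 for castration and 0.143 for sex in the authors' deposited table.

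**Figure D2:**
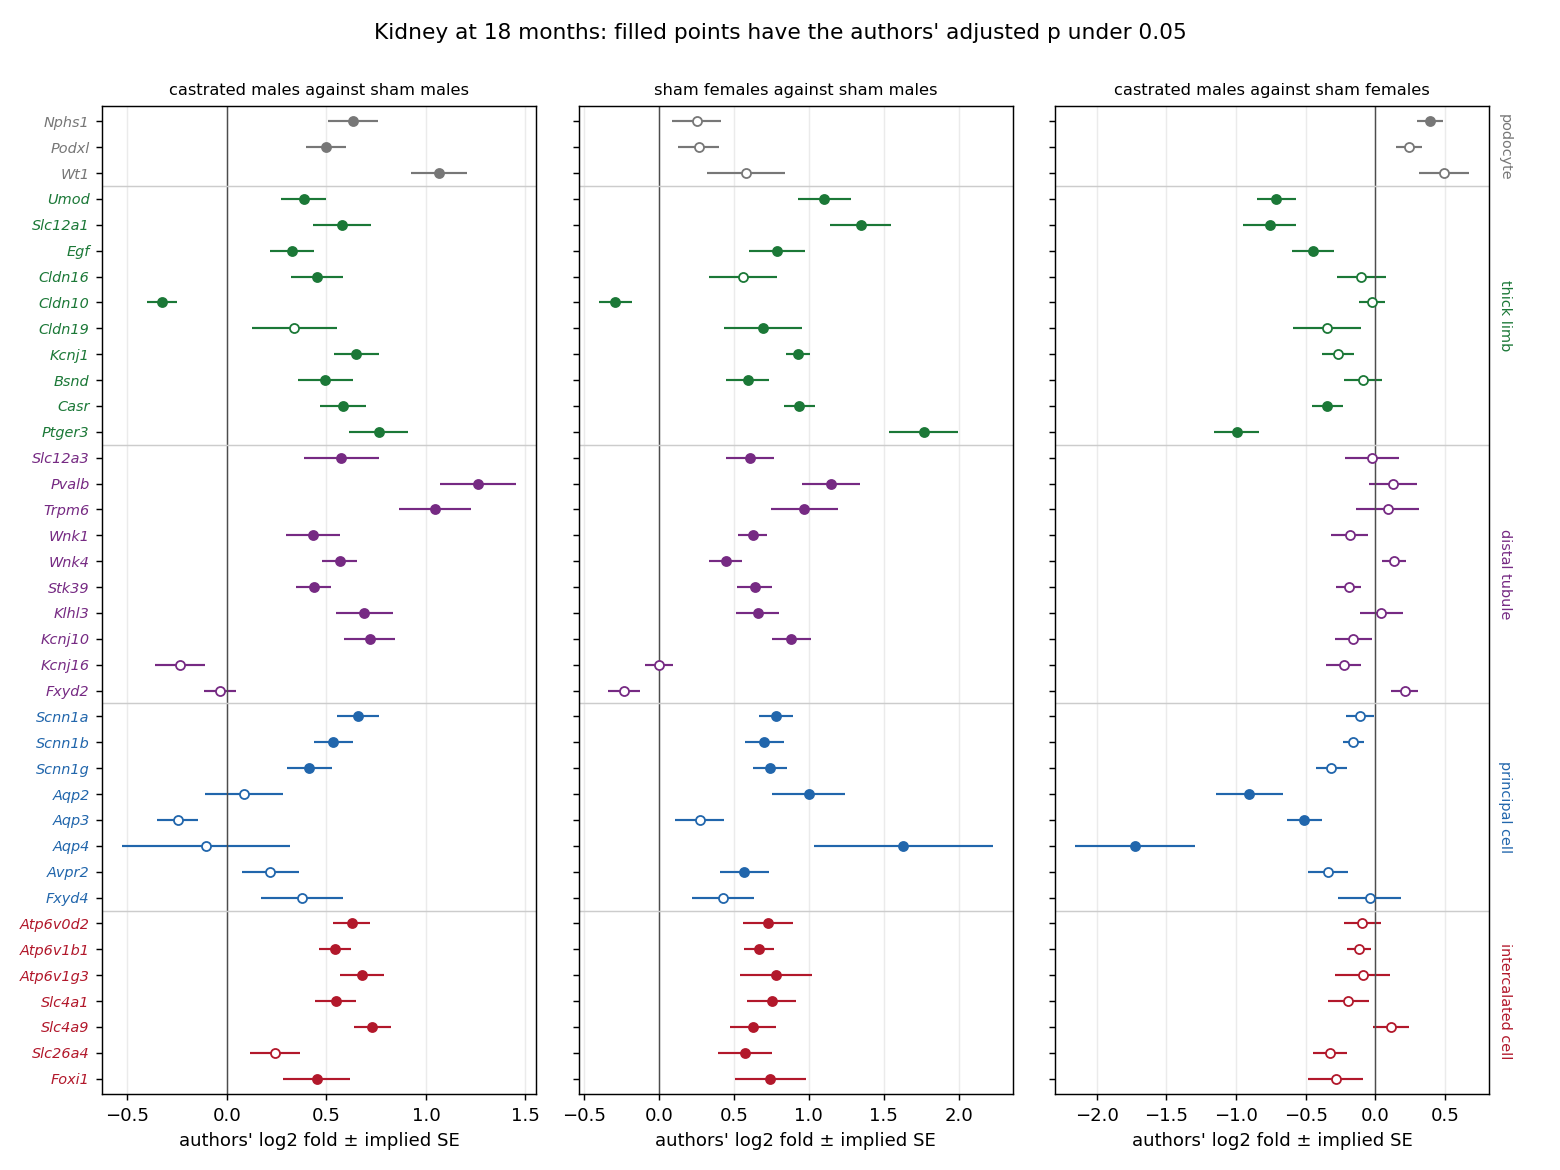
The authors' deposited log2 folds at 18 months for castrated against sham males (left), sham females against sham males (middle) and castrated males against sham females (right), with bars of 1 implied standard error. Filled points have an adjusted p under 0.05, and 28 of 38 are filled to the right of 0 in the left panel, 29 in the middle panel and 1 in the right panel.

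Principal cell genes divided into sodium channel subunits, which rose after castration, and water channels, which did not pass that test. Scnn1a, Scnn1b and Scnn1g encode the subunits of the epithelial sodium channel. Scnn1a had means of 34.0 in sham males, 63.0 after castration and 63.2 in sham females, Scnn1b had means of 16.3 in sham males, 26.2 after castration and 29.1 in sham females, and Scnn1g had means of 15.8 in sham males, 23.6 after castration and 29.1 in sham females. The authors' deposited table gives castration log2 folds of 0.66 ± 0.10, 0.54 ± 0.10 and 0.42 ± 0.11 in that order, and all 3 subunits were called for castration and for sex. Aqp2 is the vasopressin-regulated water channel of the luminal membrane, and Aqp3 and Aqp4 let water leave on the blood side. Aqp2 had means of 106 in sham males, 124 after castration and 231 in sham females, Aqp3 had means of 63.2 in sham males, 59.1 after castration and 83.4 in sham females, and Aqp4 had means of 5.62 in sham males, 5.75 after castration and 18.7 in sham females. For castration the authors' deposited table gives adjusted p = 0.863 for Aqp2, 0.0679 for Aqp3 and 0.926 for Aqp4. Aqp2 and Aqp4 were higher in females than in sham males, with a log2 fold of 0.999 ± 0.24 and adjusted p = 0.000569 for Aqp2 and a log2 fold of 1.63 ± 0.60 and adjusted p = 0.0405 for Aqp4 in the authors' deposited table.

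The vasopressin receptor Avpr2 and the sodium pump modulator Fxyd4 were the other principal cell genes. Avpr2 had means of 10.4 in sham males, 13.5 after castration and 16.8 in sham females, and was called for sex (log2 fold of 0.57 ± 0.16 and adjusted p = 0.00476 in the authors' deposited table) but not for castration. The exons of Avpr2 overlap those of Arhgap4 on the opposite strand over 81.3% of their length in the GENCODE annotation of GRCm38. The sources used here do not say whether counting was strand-specific, so the level of Avpr2 is uncertain. Umod overlaps an antisense gene in the same way over 19.5% of its exon length. Fxyd4 had means of 32.8 in sham males, 50.1 after castration and 52.1 in sham females and passed neither test at 18 months.

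Intercalated cell genes were higher in females than in sham males in 7 of 7 and rose after castration in 6 of 7. Atp6v1b1, Atp6v1g3 and Atp6v0d2 encode subunits of the proton pump in the forms these cells use. Atp6v1b1 had means of 57.8 in sham males, 93.5 after castration and 101 in sham females, Atp6v1g3 had means of 14.6 in sham males, 25.9 after castration and 27.5 in sham females, and Atp6v0d2 had means of 13.3 in sham males, 22.9 after castration and 24.3 in sham females. Their castration log2 folds in the authors' deposited table were 0.54 ± 0.082, 0.68 ± 0.11 and 0.63 ± 0.092 in that order. Foxi1, the transcription factor needed to form these cells, had means of 14.4 in sham males, 21.9 after castration and 26.6 in sham females, with a log2 fold of 0.45 ± 0.17 and adjusted p = 0.0323 for castration in the authors' deposited table.

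The anion exchangers of the list separate the acid-secreting from the base-secreting form. Slc4a1 returns bicarbonate to the blood in acid-secreting cells and is also the anion exchanger of red blood cells. Its means were 8.74 in sham males, 14.2 after castration and 16.2 in sham females, with a log2 fold of 0.55 ± 0.10 and adjusted p = 2.88e-06 for castration in the authors' deposited table. Slc26a4 (pendrin) secretes bicarbonate into the lumen of base-secreting cells, and Slc4a9 lies on their blood side. Slc4a9 had means of 22.4 in sham males, 41.4 after castration and 38.04 in sham females, with a log2 fold of 0.73 ± 0.093 and adjusted p = 2.55e-13 for castration in the authors' deposited table. Slc26a4 had means of 27.8 in sham males, 36.8 after castration and 45.5 in sham females and was the only 1 of the 7 not called for castration, with a log2 fold of 0.24 ± 0.13 and adjusted p = 0.171 in the authors' deposited table. Genes of both cell forms were thus among those that rose.

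Castrated males were compared directly with sham females as well. At 18 months 1 of the 38 genes was higher in castrated males and 8 were lower in the authors' deposited table, against a background of 2.73% higher and 4.41% lower among 17889 genes. The gene that was higher was Nphs1. The 8 that were lower belong to the thick limb (Umod, Slc12a1, Egf, Casr and Ptger3) and to the principal cells (Aqp2, Aqp3 and Aqp4), and include all 3 water channels of the list. The authors' deposited table gives a log2 fold of -0.99 ± 0.16 and adjusted p = 1.41e-07 for Ptger3, a log2 fold of -0.71 ± 0.14 and adjusted p = 3.10e-05 for Umod and a log2 fold of -0.76 ± 0.19 and adjusted p = 0.00233 for Slc12a1. For the water channels it gives a log2 fold of -0.91 ± 0.24 and adjusted p = 0.00518 for Aqp2, a log2 fold of -0.51 ± 0.13 and adjusted p = 0.00242 for Aqp3 and a log2 fold of -1.73 ± 0.43 and adjusted p = 0.00206 for Aqp4 in the authors' deposited table. No distal tubule or intercalated cell gene was called in this comparison, and their median differences were 0.02 and -0.10. The median over all 38 genes was -0.13, where that over every gene whose mean reached 1 was 0.01. When each group's means were scaled to their sum without Kap, a very abundant proximal tubule transcript described further on, the median over the 38 genes was -0.23. The ratio of the Slc12a3 mean to the Slc12a1 mean at 18 months was 1.74 in sham males, 1.75 after castration and 1.05 in sham females. At 12 weeks it was highest in sham females instead, at 0.821, 0.837 and 1.36 in the same order of groups.

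At 12 weeks the same genes did not move as a block. The authors' deposited table lists each gene under only 1 of the 3 comparisons, without saying how it was picked, and gives no error that can be used here. The share of listed genes that were called differed widely between comparisons, at 48.6% for castration, 81.4% for sex and 5.14% between castrated males and females, so listing and calling are not independent. Of the 12 genes listed for castration, 7 rose and 4 fell, against 22.6% and 26.0% among the 5598 genes listed. Of the 9 under sex, 4 were called higher and 3 were called lower in females, against 41.8% and 39.7% of 3200. Of the 17 listed for castrated males against females, 1 was higher (Cldn16) and 1 lower (Aqp4), against 3.19% and 1.95% of 8444. The median difference of log2(FPKM + 1) over all 38 genes was 0.09 for castration and 0.04 for sex, and the medians over every gene whose mean reached 1 were 0.01 and -0.01. Sham males were lowest in 20 of the 38 genes, while 44.8% of 11915 genes had that order. Without Fxyd2 the genes summed to 2504 FPKM in sham males, 2530 after castration and 2568 in sham females.

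The 4 genes that fell after castration at 12 weeks were Umod and Cldn10 of the thick limb, Pvalb of the distal tubule and Aqp3 of the principal cells. Umod had 689 FPKM in sham males, 425 after castration and 408 in sham females, with adjusted p = 0.00902 for castration in the authors' deposited table. Cldn10 had 145 FPKM in sham males, 75.3 after castration and 62.0 in sham females, Pvalb had 35.5 FPKM in sham males, 19.4 after castration and 25.6 in sham females, and Aqp3 had 42.0 FPKM in sham males, 26.4 after castration and 35.5 in sham females. Their adjusted p for castration in the authors' deposited table were 0.000476 for Cldn10, 0.000476 for Pvalb and 0.00902 for Aqp3. In these 4 genes both other groups lay below sham males. The smallest p in the 12-week table is 5e-05, which gives an adjusted p of 0.000476, so genes at that value cannot be ranked.

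The 7 genes that rose after castration at 12 weeks came from 4 of the 5 cell types. No podocyte gene was listed for castration, so none could be called. Fxyd4 had 46.0 FPKM in sham males, 99.3 after castration and 114 in sham females and Slc4a9 had 40.5 FPKM in sham males, 81.8 after castration and 92.5 in sham females, both with adjusted p = 0.000476 in the authors' deposited table. In these 2 genes the castrated male mean was 2.16-fold and 2.02-fold the sham male mean. Slc12a1 had 162 FPKM in sham males, 261 after castration and 209 in sham females, Cldn19 had 10.1 FPKM in sham males, 17.9 after castration and 15.2 in sham females, and Ptger3 had 9.69 FPKM in sham males, 14.3 after castration and 11.9 in sham females. These 3 thick limb genes were highest in castrated males, with adjusted p = 0.00448, 0.000476 and 0.00197 in the authors' deposited table. Aqp2 had 58.1 FPKM in sham males, 84.4 after castration and 114 in sham females and Trpm6 had 2.79 FPKM in sham males, 3.70 after castration and 4.06 in sham females, with adjusted p = 0.00127 and 0.0295 in the authors' deposited table.

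Between the sexes at 12 weeks, the kinase Wnk4 and its target cotransporter Slc12a3 were higher in females, and the potassium channel genes were lower. Wnk4 had 93.6 FPKM in sham males, 230.4 after castration and 266 in sham females and Slc12a3 had 133 FPKM in sham males, 219 after castration and 284 in sham females, both with adjusted p = 0.000476 for sex in the authors' deposited table. The ratio of the Wnk4 mean to the Wnk1 mean was 0.523 in sham males, 1.26 after castration and 1.38 in sham females at 12 weeks, and 1.14, 1.25 and 1.01 in the same order at 18 months. Kcnj1 had 66.4 FPKM in sham males, 48.8 after castration and 45.9 in sham females, Kcnj10 had 10.4 FPKM in sham males, 5.78 after castration and 5.85 in sham females, and Kcnj16 had 89.9 FPKM in sham males, 56.7 after castration and 50.4 in sham females. Their adjusted p for sex in the authors' deposited table were 0.00589 for Kcnj1 and 0.000476 for Kcnj10 and Kcnj16. In all 3 channel genes castrated males lay near females, but the authors' deposited table does not list them for castration. The other genes called higher in females in the authors' deposited table were Nphs1 (adjusted p = 0.0372) and Scnn1b (adjusted p = 0.0208). Wt1 and Klhl3 were listed for sex and not called.

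Apart from Slc4a9, the intercalated cell genes had castration differences in log2(FPKM + 1) between -0.22 (Foxi1) and 0.39 (Atp6v1b1) at 12 weeks. The proton pump subunit Atp6v0d2 had 15.5 FPKM in sham males, 15.7 after castration and 13.0 in sham females, Atp6v1g3 had 27.2 FPKM in sham males, 28.7 after castration and 24.8 in sham females, and Slc26a4 had 24.6 FPKM in sham males, 26.5 after castration and 25.9 in sham females. Of the 7 genes, 6 were listed for castrated males against females and none of these was called. Only 5.14% of the 8444 genes listed for that comparison were called. The ratio of the Slc4a9 mean to the Slc26a4 mean, both genes of base-secreting cells, was 1.64 in sham males, 3.08 after castration and 3.57 in sham females at 12 weeks. At 18 months the same ratio was 0.807, 1.13 and 0.836. In FPKM, Slc4a9 was thus more abundant than Slc26a4 in all 3 groups at 12 weeks.

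Several genes that rose after castration at 18 months had no castration test at 12 weeks. The 12-week means of Scnn1a, Klhl3 and Slc4a1 lay close together, and those of Egf and Wt1 less so. The authors' deposited table does not list Scnn1a, Scnn1g, Klhl3, Casr, Slc4a1, Egf, Podxl or Wt1 for castration. The sodium channel subunit Scnn1a had 32.4 FPKM in sham males, 31.6 after castration and 31.4 in sham females at 12 weeks and was not called in the 1 comparison that lists it. Its partner Scnn1g had 14.1 FPKM in sham males, 11.6 after castration and 13.0 in sham females, and Klhl3 had 3.64 FPKM in sham males, 3.73 after castration and 3.65 in sham females. Casr, at the lower end of the list, had 3.15 FPKM in sham males, 3.15 after castration and 2.64 in sham females, and Slc4a1 had 5.84 FPKM in sham males, 5.71 after castration and 5.73 in sham females. Egf, which is made next to Umod in the thick limb, had 356 FPKM in sham males, 306 after castration and 266 in sham females. It was listed only for castrated males against females, where it was not called, so its lower means after castration and in females were not tested. The ratio of the Umod mean to the Slc12a1 mean was 4.25 in sham males, 1.63 after castration and 1.95 in sham females at 12 weeks, and 6.48, 5.68 and 5.50 in the same order at 18 months. The podocyte gene Podxl had 35.4 FPKM in sham males, 32.5 after castration and 33.1 in sham females and Wt1 had 5.76 FPKM in sham males, 7.63 after castration and 7.11 in sham females, and neither was called in its listed comparison.

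Set side by side, the ages share some calls and oppose in others. The 12-week and 18-month tables were normalized separately and hold different units, so nothing was tested between ages. After castration Slc12a1, Ptger3, Trpm6 and Slc4a9 rose and Cldn10 fell at both ages, whereas Umod and Pvalb fell at 12 weeks and rose at 18 months. Umod had a castration difference of -0.70 in log2(mean + 1) at 12 weeks and 0.54 at 18 months, and Pvalb had -0.84 and 1.36. Between the sexes Slc12a3, Wnk4 and Scnn1b were higher in females at both ages, whereas Kcnj1 and Kcnj10 were lower in females at 12 weeks and higher at 18 months. Kcnj10 had a sex difference of -0.73 at 12 weeks and 0.97 at 18 months. In the comparison of castrated males with sham females, Aqp4 was lower in castrated males at both ages, with 3.12 FPKM in sham males, 3.52 after castration and 11.4 in sham females at 12 weeks. For castration 24 of the 38 genes had a difference above 0 at both ages, 3 had it below 0 at both, 11 went from below to above 0 and 0 the other way. For sex these counts were 20, 2, 16 and 0. In castrated males against females, 17 genes were above 0 at 12 weeks and below at 18 months, 6 the other way, 12 below at both and 3 above at both.

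**Figure D3:**
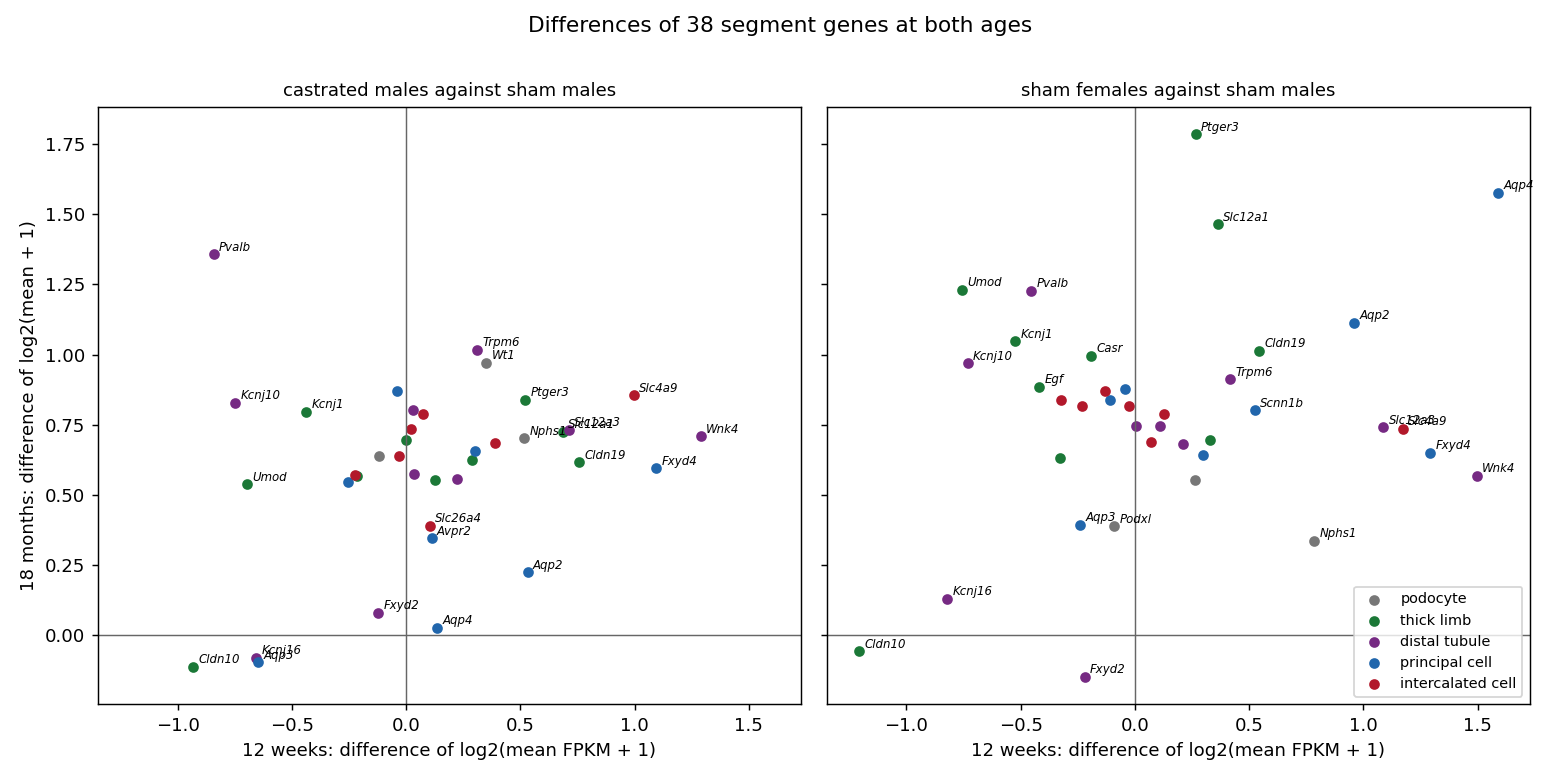
Difference of log2(mean + 1) at 12 weeks (horizontal) and 18 months (vertical) for castrated against sham males (left) and sham females against sham males (right), 1 point per gene, coloured by cell type. The upper left of each panel holds the genes below 0 at 12 weeks and above 0 at 18 months, 11 for castration and 16 for sex, and the lower right holds none.

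Other genes of the same cell types, from lists that do not overlap the 38, went the same way in most lists at 18 months. Like the 38 genes, these lists were chosen with earlier results of these data known, so they are not an independent check. The background there for castration was 9.56% of 17872 genes higher and 13.1% lower. In the authors' deposited table, 10 of 15 other intercalated cell genes rose after castration and 0 fell, with a median difference of 0.60. The largest differences among these were in the water channel Aqp6 and the ammonia transporters Rhbg and Rhcg. Of 12 other thick limb and macula densa genes, 6 rose, among them Ppp1r1a and Tmem72, and 0 fell (median 0.55) in the authors' deposited table. Of 13 other distal and connecting tubule genes, 6 rose and 1 fell (median 0.55), led by the kinase Sgk1 (serum- and glucocorticoid-induced), the calcium-binding S100g and the kallikrein Klk1 in the authors' deposited table. Of 12 other principal cell and medulla genes, 5 rose and 2 fell (median 0.58), and of 13 other podocyte genes, 4 rose and 1 fell (median 0.38) in the authors' deposited table. Sgk1, which aldosterone also induces, had means of 87.9 in sham males, 285 after castration and 265 in sham females. At 12 weeks, 22.6% of the 5598 genes listed for castration in the authors' deposited table rose and 26.0% fell. Of the listed genes, 4 of 5 other intercalated cell genes and 2 of 3 other thick limb genes rose and 0 fell. Of 6 other podocyte genes 3 fell and 0 rose, and of 6 other principal cell genes 3 rose and 3 fell. Of 3 other distal genes 1 rose and 1 fell.

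Genes of other cell types, not all of them kidney cells, moved as well, and their part in the differences above was not tested. At 18 months the shares of all genes called were 9.56% higher and 13.1% lower for castration. For sex they were 7.91% higher and 8.90% lower. At 12 weeks 22.6% of the 5598 genes listed for castration rose and 26.0% fell. Since these shares differ, counts of the 2 ages are not compared. Of 20 proximal tubule genes at 18 months, 4 rose and 8 fell after castration in the authors' deposited table. Their median difference was -0.04, where that over every gene whose mean reached 1 was 0.13. Over the same genes whose mean reached 1, the median deposited log2 fold was -0.01, and over the 20 proximal tubule genes it was -0.19. Their summed means were 10852 in sham males, 12019 after castration and 9536 in sham females. At 12 weeks 1 proximal tubule gene rose and 5 fell of 6 listed for castration in the authors' deposited table. Endothelial genes rose in 5 of 10 at 18 months in the authors' deposited table (median 0.52). Their summed means were 237 in sham males, 350.4 after castration and 302 in sham females. Stromal and smooth muscle genes rose in 7 of 8 listed for castration at 12 weeks (median 0.97 over all 11) and in 0 of 11 at 18 months in the authors' deposited table. Urothelial genes of the renal pelvis rose in 5 of 7 at 18 months, and their summed means were 1.43 in sham males, 12.1 after castration and 3.62 in sham females. Red blood cell genes rose in 3 of 5 at 18 months, with summed means of 3460 in sham males, 5246 after castration and 2726 in sham females. Slc4a1, also the exchanger of red blood cells, had means of 8.74, 14.2 and 16.2 in the same order. Any part of blood in its level was not tested. For leukocytes 1 gene rose and 1 fell of 12 at 18 months, for fat 1 of 6 rose, and for the adrenal gland 0 of 5 were called in the authors' deposited table. Of 7 hepatocyte genes 1 rose and 2 fell (Ttr and Cyp2e1) in the authors' deposited table. Cyp2e1 had 1003 FPKM in sham male kidney at 12 weeks, where Alb had 8.78, so this list does not measure hepatocytes alone. In females against sham males at 18 months, the authors' deposited table calls 2 proximal tubule genes higher and 7 lower, 1 endothelial, 1 urothelial and 1 leukocyte gene higher, 1 fat gene (Fabp4) higher, 1 red blood cell gene lower, 3 of 7 hepatocyte genes lower (Ttr, Serpina1a and Cyp2e1), and 0 stromal and 0 adrenal genes either way. At 12 weeks, of the genes listed for castration in the authors' deposited table, 4 of 5 endothelial, 3 of 4 urothelial and 3 of 5 leukocyte genes and 1 of 2 adrenal genes rose. The 1 red blood cell gene and the 1 hepatocyte gene listed there fell, and 0 of 3 fat genes were called in the authors' deposited table. Among all these lists, only fat and adrenal genes were listed at 0 in any kidney group.

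In liver some of the 38 genes were called against sham males. At 12 weeks 5 of the 14 that are listed for castration rose in the authors' deposited table (Egf, Klhl3, Scnn1a, Atp6v0d2 and Slc4a9), where 12.1% of the 8479 listed genes rose. Wnk4 was the only gene of the 38 listed for sex and was lower in females, and 52.9% of the 628 genes listed for sex were lower in the authors' deposited table. At 18 months 1 of 31 listed genes, Atp6v0d2, rose after castration in the authors' deposited table, against 1.08% of 16883 genes, and 2 of 26, Atp6v0d2 and Podxl, were higher in females, against 5.87% of 16659 genes. Klhl3 had 1.40 FPKM in liver of castrated males against 0.881 in sham males, with adjusted p = 0.0323 in the authors' deposited table, and the other liver values are given after the kidney results.

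A single androgen-regulated transcript of the proximal tubule also moved with the groups at 18 months. Kap made up 10.9% of the summed means in sham males at 18 months, 0.124% after castration and 3.99% in sham females. When each group's means were divided by their sum without Kap, the median castration difference of the 38 genes at 18 months was 0.54 in place of 0.64, that between the sexes was 0.79 under both scalings, and that for castrated males against females was -0.23 in place of -0.13. At 12 weeks Kap was listed at 0 in sham males and had 689 FPKM after castration and 27835 FPKM in sham females. Whether that 0 reflects the RNA or its quantification was not tested, so no such scaling was made there.

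**Figure D4:**
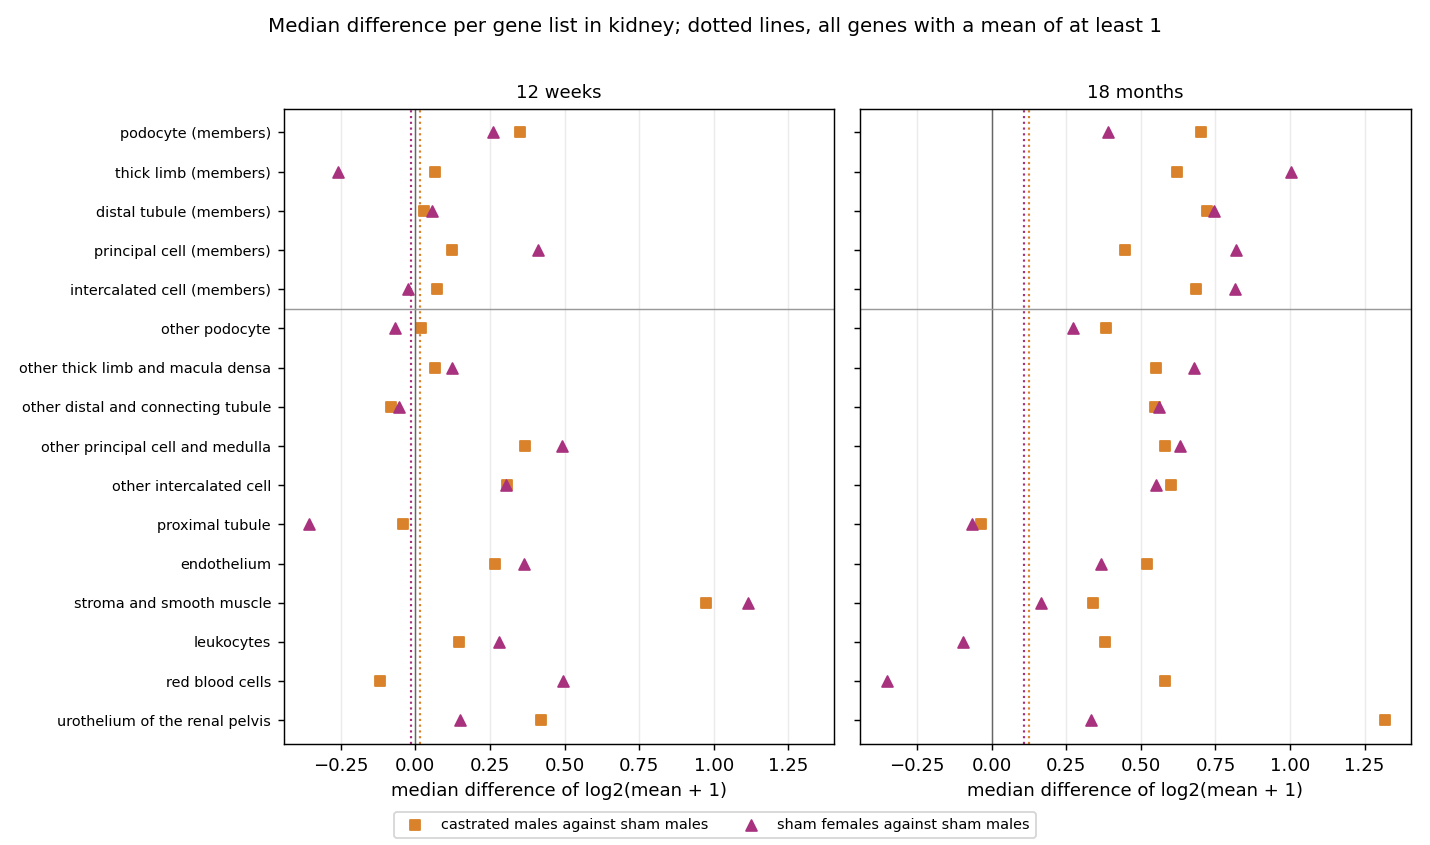
Median difference of log2(mean + 1) per gene list in kidney at 12 weeks (left) and 18 months (right) for castrated against sham males (squares) and sham females against sham males (triangles), with dotted lines at the medians over every gene whose mean reached 1. At 18 months both medians of all 5 cell types of the 38 genes lie to the right of the dotted lines, and those of the proximal tubule lie left of 0.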

How the data were processed

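RNA-seq of kidney from 6 groups of mice was used, with liver as a reference for tissue specificity. Polyadenylated RNA, from Trizol extracts, was read in pairs of 150 bp, per the labels' protocols. The submitters' processing notes name HISAT2, SAMtools, Cufflinks and the build mm10, without the role or version of any of them. For 12 weeks the authors deposited FPKM as group means, to which 0.01 had been added, judging from the values. For 18 months the values the authors deposited are group means of a normalized signal, and no unit is named. The authors' deposited tables also hold p-values and adjusted p-values, in the column layout of Cuffdiff for 12 weeks and from DESeq2 with log2 folds for 18 months, per the file headers. The deposited 18-month log2 folds give the second-named group over the first-named group and were turned round, after a check against the means.

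Differences were computed as log2(mean + 1), which understates the fold of low genes. Genes were called at an adjusted p under 0.05 over all genes in the table. The implied SE was obtained by dividing the size of the log2 fold by the standard normal deviate of its two-sided p-value. The ratio of means exceeded the deposited log2 fold by a median of 0.15 for castration, 0.13 for sex and 0.01 between castrated males and females at 18 months, over genes whose mean reached 1. Since the tables hold no values per library, no fit across libraries was made, and depth, intervals and outliers could not be assessed. The self-test recovered the known answers of simulated tables. All 38 genes could be named. From each of the 14 other lists, up to 3 called genes with the largest difference were named per comparison. The 38 genes and the lists were chosen with earlier results of these data known. Start regions came from RefSeq and were matched by symbol for 29 genes. The genes without an entry were Slc4a1, Scnn1a, Podxl, Slc4a9, Fxyd2, Aqp4, Bsnd, Atp6v0d2 and Wt1. Other adjusted p thresholds, a fold minimum, other added constants, centring and a scaling without Kap were tried. Metabolite tables were not used here. Python 3.11.15, pandas 2.3.3, NumPy 2.4.6, SciPy 1.17.1 and Matplotlib 3.10.9 were used.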

Additional observations from a re-analysis of the deposited data

Results flagged for a closer look

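The signals below lie in liver, outside the kidney comparisons, and exceed the sham male liver mean at least 2-fold with an adjusted p under 0.05 in the authors' deposited table. Atp6v0d2, a proton pump subunit that is also known from macrophages and osteoclasts, had a mean of 10.3 FPKM in castrated male liver at 12 weeks against 0.558 in sham males, with adjusted p = 0.000856 in the authors' deposited table. At 18 months its liver mean was 11.3 in castrated males and 18.7 in sham females against 0.983 in sham males. Its log2 fold in the authors' deposited table was 3.38 ± 0.46 (implied SE) with DESeq2 adjusted p = 8.07e-11 for castration and 4.04 ± 0.49 with adjusted p = 6.61e-14 for females. Scnn1a had 38.03 FPKM in castrated male liver at 12 weeks against 16.7 in sham males. The means of Egf and Slc4a9 in castrated male liver at 12 weeks were low, at 1.05 FPKM against 0.284 and 1.14 FPKM against 0.181 in sham males. For Scnn1a, Egf and Slc4a9 the adjusted p was 0.000856 in the authors' deposited table, and the background for castration in 12-week liver was 12.1% of 8479 listed genes higher.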

How the results depend on the processing

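No paired analysis was possible because the columns are group means and carry no replicate numbers, and for the same reason no library could be left out in turn. With an adjusted p under 0.01, the genes called higher at 12 weeks numbered 2 for sex (4 at 0.05) and 0 for castrated males against females (1 at 0.05), and those called lower for sex at 18 months numbered 0 (1 at 0.05). A 1.5-fold minimum was set on the ratio of mean + 1. With it, the calls numbered 4 higher for castration at 12 weeks (7 without it) and 0 higher for castrated males against females (1 without it). At 18 months the same minimum left 0 lower for castration (1 without it), 0 lower for sex (1 without it), and 0 higher and 5 lower for castrated males against females (1 and 8 without it). Counts that changed no more than 1.5-fold are not printed. Of the genes called higher for castration at 18 months, Umod, Egf, Cldn16, Wnk1, Stk39, Scnn1g and Foxi1 fell short of the fold minimum. Of those called higher for sex, Wnk4 did. The deposited folds are smaller, and by them further called genes lay under 1.5-fold. Among these were Slc12a1 (1.49-fold), Slc12a3 (1.49-fold) and Atp6v1b1 (1.46-fold) for castration and Slc26a4 (1.49-fold) for sex. The median castration difference at 18 months was 0.51 when centred on all genes, 0.52 from the deposited log2 folds and 0.54 scaled without Kap, in place of 0.64. The median sex difference at 18 months was 0.68 with 5 added to the means, 0.69 when centred and 0.68 from the deposited log2 folds, in place of 0.79. For castrated males against females at 18 months it was -0.23 scaled without Kap, in place of -0.13. The scaling without Kap and the deposited folds of single genes were tried after seeing the data. Single genes were followed only with 0.1 added to the means, when centred and, at 18 months, in the deposited folds. No called gene changed sign under those settings. Uncalled or unlisted genes that did were Casr (castration) and Scnn1a (castrated males against females) at 12 weeks when centred, Fxyd2 and Aqp4 (castration) at 18 months when centred and in the deposited folds, and Kcnj16 (sex) at 18 months in the deposited folds. The depth per library is unknown, and 12-week calls cover only genes listed for that comparison.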

Other observations

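A few of the 38 genes were also measured in liver. A liver mean of at least 1 in some group was found for 8 of them at 12 weeks and 6 at 18 months. Wnk1, which many cell types express, had 25.6 FPKM in sham males, 22.7 after castration and 23.4 in sham females at 12 weeks. Wnk4 had 6.001 FPKM in sham males, 2.95 after castration and 1.45 in sham females in 12-week liver, and was lower in females with adjusted p = 0.00223 in the authors' deposited table. In kidney of the same age, Wnk4 was higher in females, and the difference between tissues was not tested. In 18-month liver Scnn1a had a mean of 21.2 after castration and 18.6 in sham females. Podxl, which endothelial cells also express, had 1.51 in sham females against 0.810 in sham males in 18-month liver, with DESeq2 adjusted p = 0.0459 in the authors' deposited table.

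Red blood cell genes were higher in castrated males than in sham females in 5 of 5 at 18 months in the authors' deposited table, with a median difference of 0.94. The background for that comparison was 2.73% of 17889 genes higher. Stromal and smooth muscle genes had a median sex difference of 1.11 at 12 weeks and 0.17 at 18 months, and the difference between ages was not tested.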
